A study of Homo sapiens with 20 samples.

Results

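The genes described here encode the protein subunits of the cytosolic ribosome, measured in MDA-MB-468 cells over 72 h of EGF. Members were the protein-coding genes whose symbol begins with RPL or RPS followed by a digit, together with RPSA and the stalk genes RPLP0, RPLP1 and RPLP2. The S6 kinase genes, RPS19BP1 and the RPS4Y genes, whose symbols begin in the same way, were left out. This gave 89 of 60271 genes in the table: 43 genes of the large subunit, 31 of the small subunit, 3 of the stalk, 9 paralogs or retrocopies, and 3 readthrough rows that join a ribosomal protein gene to its neighbor. The rule uses the symbol and gene type and no measured value, but it was set with earlier results of these data known. MDA-MB-468 is a triple negative breast cancer line of epithelial cells with high EGFR. Per the authors' methods, cells were cultured for 24 h after seeding and starved of serum for 24 h before EGF. The control was untreated, and the other groups received 50 ng/mL EGF, which induces an epithelial-mesenchymal transition in these cells, for 12, 24, 48 or 72 h. Per the labels, all groups were seeded and harvested together, with 4 biological replicates each and 20 libraries in all. With a shared seeding and harvest, the stated times before EGF cannot hold for every EGF group. The experiment covers 1 cell line in culture, and how long each group was without serum in all is not given in the sources used here.

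A ribosome consists of a small subunit, which reads the mRNA, and a large subunit, which joins amino acids into protein. Each contains ribosomal RNA and a fixed set of proteins, most of them present as a single copy, so that the genes for these proteins are usually expressed together. Their mRNAs are short and very abundant, and most begin with a cytosine and a run of pyrimidines, the terminal oligopyrimidine (TOP) run. Through this run, translation of these mRNAs is controlled by mTOR and the RNA-binding protein LARP1. Growth factors such as EGF activate mTOR and MYC, and ribosome production is one of the main processes that both control.

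The start sequences below are shown because the TOP run is the element that most of these genes share and that the paralogs often lack. They are RefSeq sequences of the GRCh38.p14 build, with 15 bases before and 15 bases from the annotated start onward, 5′ to 3′ on the strand of the gene. Capitals mark the TOP run, defined as a cytosine exactly at the start followed by at least 4 C or T, and a sequence with no capitals has none at that position.
RPS3A: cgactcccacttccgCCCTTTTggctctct
RPS6: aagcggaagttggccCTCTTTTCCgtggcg
RPS24: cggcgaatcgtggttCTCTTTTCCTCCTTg
RPLP0: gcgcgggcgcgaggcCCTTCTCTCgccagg
RPL12: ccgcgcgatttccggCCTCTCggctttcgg
RPL36: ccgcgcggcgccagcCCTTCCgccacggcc
RPS4X: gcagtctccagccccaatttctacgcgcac
RPL7L1: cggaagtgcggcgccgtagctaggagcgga
RPL26: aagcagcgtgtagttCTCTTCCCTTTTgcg
RPL26L1: agtcttccaggggtcggcgaacgaaacgcg
RPL22: tagttcgctcacctcCCTTTCTaactccgc
RPL22L1: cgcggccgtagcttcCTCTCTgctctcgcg
RPL36A: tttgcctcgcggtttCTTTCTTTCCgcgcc
RPL36AL: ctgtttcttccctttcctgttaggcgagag
RPS27: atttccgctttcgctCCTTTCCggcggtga
RPS27L: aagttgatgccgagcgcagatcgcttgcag

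The windows lie at chr4:151099613-151099642 (+) for RPS3A, chr9:19380222-19380251 (-) for RPS6, chr10:78033848-78033877 (+) for RPS24, chr12:120201097-120201126 (-) for RPLP0 and chr9:127451392-127451421 (-) for RPL12. The RPL36 window is at chr19:5690280-5690309 (+), that of RPS4X at chrX:72277234-72277263 (-) and that of RPL7L1 at chr6:42879601-42879630 (+). Of the pairs, RPL26 is at chr17:8383179-8383208 (-) and RPL26L1 at chr5:172958714-172958743 (+), RPL22 at chr1:6199581-6199610 (-) and RPL22L1 at chr3:170870181-170870210 (-). RPL36A is at chrX:101390996-101391025 (+), RPL36AL at chr14:49620612-49620641 (-), RPS27 at chr1:153990747-153990776 (+) and RPS27L at chr15:63157463-63157492 (-). Each window spans the first bases of the first exon, in the 5′ untranslated region, and the flank before it. Of the 89 members, 70 had an entry in the RefSeq promoter table. The TOP run was found at a listed start of 48 of these 70 members (68.6%) and of 1404 of 27305 genes (5.14%). RPL22L1 was the paralog shown with a run of its own, and no run stood at the listed starts of RPL7L1, RPL26L1, RPL36AL and RPS27L. RPS4X also lacked the run at its annotated start. For any of these genes, the annotated start may differ from the start used in these cells.

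In the 300 bases around the start, from 250 before to 50 after it, other motifs were searched on both strands. The ETS core, CCGGAAG, was found in 24 of 70 members (34.3%) and in 12.2% of all genes with an entry. The YY1 motif AAGATGGCG was found in 6 members (8.57%) and in 2.14% of genes. The E-box CACGTG, to which MYC binds, was found in 5 members (7.14%) against 8.77% of genes, and TATAAA in 8 members (11.4%) against 14% of genes. A match is a description of the letters and does not show that a factor binds there.

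Libraries held 15611961 to 25856953 estimated counts. Levels below are in CPM, the counts divided by the scaled size of the library, after TMM scaling, which corrects library sizes so that most genes are centered between libraries. Epithelial markers were detected in all 20 libraries (EPCAM at 138 to 225 CPM), EGFR was at 3357 CPM or more, and the leukocyte marker PTPRC did not pass the filter on low counts. Libraries of a group differed from each other beyond sampling noise (chi-square per gene of 3.53 to 57.5 over 30 pairs). The control libraries differed most among themselves: the coefficient of variation of a member had a median of 10% over the controls, against 4.32 to 7.22% in the EGF groups. Control replicate 2 was the lowest control for 39 of 86 members and control replicate 3 for 40. Marker lists moved with the groups. The 6 epithelial markers (EPCAM, CDH1, KRT8, KRT18, KRT19 and EGFR) summed to 4829 to 5278 CPM in the control, 18450 to 19200 at 12 h, 10450 to 13150 at 24 h, 6898 to 7702 at 48 h and 7870 to 8601 at 72 h. At 12 h all 6 markers were higher by TMM scaling, EPCAM the least (0.24). The log2 ratio of the TMM factors at 12 h to the control was -0.285, larger in size than this change. Calls of the markers by library size alone are not given. At 72 h 3 were higher and 2 lower by TMM scaling, CDH1 (-0.49, adjusted p = 1.11e-05) and EPCAM (-0.33, adjusted p = 8.2e-05). The 5 markers of leukocytes, endothelium and fibroblasts or smooth muscle (PTPRC, PECAM1, COL1A1, COL3A1 and ACTA2) summed to 7.64 to 10.85 CPM in the control and 18.2 to 20.1 CPM at 72 h. PTPRC and COL3A1 had at most 8 and 1 counts in a library, with 0 in the lowest. At 72 h, ACTA2 (1.72, adjusted p = 1.31e-05) and COL1A1 (1.17, adjusted p = 8.09e-08) were higher, and PECAM1 did not pass (0.42, adjusted p = 0.0979). Their part in the changes of the members was not tested. In whole-culture RNA, fewer cells with a high level and less RNA per cell cannot be told apart.

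Together, the members took a smaller part of the sequenced mRNA at 72 h than in any other group. In the control, they held 8.15, 7.40, 7.29 and 7.36% of the counts of a library, a mean of 7.55% ± 0.400 (SD, n = 4). At 12 h, the share was 6.91, 6.78, 6.81 and 6.74%, and at 24 h it was 7.293, 7.001, 6.559 and 7.194%. At 48 h, it was 7.20, 7.40, 7.22 and 7.30%, overlapping with the control. At 72 h, the share fell to 5.85, 5.83, 6.23 and 6.11%, a mean of 6.003% ± 0.196, and each of these libraries was below each of the other 16. Mitochondrial transcripts held 12.3 to 16.4% of counts at 72 h and 9.03 to 12.6% in the control. Without the counts of mitochondrial genes, the members held 7.07% ± 0.181 at 72 h and 8.47% ± 0.367 in the control, still without overlap, while the 72 h libraries (6.90 to 7.31%) then overlapped those at 12 h (7.30 to 7.79%). The 1298 pseudogene rows of ribosomal protein families added 0.431 to 0.571% of the members' counts. Reads of a gene and of its processed copies cannot always be told apart, and the counting tool was not named.

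**Figure D1:**
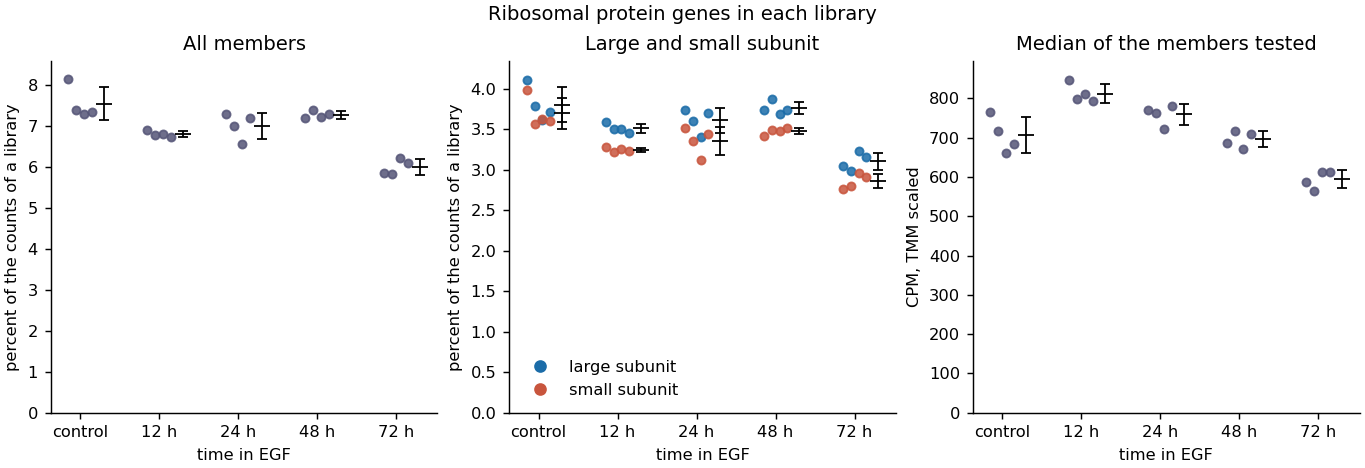
Each point is 1 library, by group, with the mean and SD to the right of the 4 points (n = 4): share of all counts in the 89 members (left), in the large and small subunit genes (middle), and the median CPM of the 86 members tested after TMM scaling (right). In the middle panel, the stalk genes are counted with the large subunit. The share is lowest at 72 h (5.83 to 6.23%), while the 12 h libraries are low by share (6.74 to 6.91%) and high by scaled median CPM (793 to 846).

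Genes of both subunits held fewer of the counts at 72 h, at 3.10% for the large and 2.86% for the small subunit, against 3.80 and 3.69% in the control. In these shares and in the ratio below, the stalk genes are counted with the large subunit. Small subunit genes made up 48.5 to 50.1% of the counts of both subunits in the control, and 47.6 to 48.4% at 72 h. At 12 h, they made up 47.8 to 48.3% and at 24 h 47.81 to 48.44%, below every control as at 72 h. At 48 h, they made up 47.48 to 48.53%, overlapping the control. This ratio does not depend on how libraries are scaled.

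Of the 89 members, 86 passed the filter on low counts, and the same 86 had at least 10 counts in every library. RPL3L, made mainly in heart and skeletal muscle, RPL10L, made mainly in testis, and RPS27AP5, a retrocopy of RPS27A, did not pass and had at most 4, 1 and 1 counts in a library. Of the 86, 80 differed somewhere over the 5 groups (edgeR quasi-likelihood F test, adjusted p under 0.05). This is 93% of the members, against 88.6% of all 16522 genes tested and 94.5% of the 1918 genes with a mean of at least 100 CPM, and is near that background.

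At 12 h, 43 members were higher than in the control and 1 was lower by TMM scaling, and with scaling by library size alone 2 were higher and 27 were lower. Among all genes tested, 32.9% were higher and 36.5% lower at 12 h, and among genes of at least 100 CPM, 55.3% were higher and 19% lower. The members' 50% is near the second background. The median log2 fold change of the members was 0.18 at 12 h, against -0.05 over all genes and 0.24 over genes of at least 100 CPM. By library size alone, the medians were -0.11 for members and -0.34 for all genes, so the direction at 12 h depended on the scaling. Relative to the median gene, the members were 0.23 higher on the log2 scale under both. This is so by construction, since a scaling shifts all genes of a library alike. The distance was 0.16 with at least 10 counts in every library, and 0.09 with the factors per gene that the authors deposited. The TMM factors of the 12 h libraries were 0.862 to 0.898, against 1.06 to 1.08 in the control, a log2 ratio of -0.285. At 12 h, ACTB rose from 1.12 to 3.08% of counts and EGFR from 0.372 to 1.03%.

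By 24 h, fewer members differed from the control, and by 48 h more were lower than higher. At 24 h, 16 members were higher and 5 lower, with a median log2 fold change of 0.08, while 29.2% of all genes were higher and 29.6% lower, and 44.7% and 23% of genes of at least 100 CPM. Scaling by library size alone gave 0 higher (0 also at an unadjusted p under 0.05) and 25 lower at 24 h by edgeR and a median of -0.06, and without EGF 24 h replicate 3 there were 26 higher. At 48 h, 4 were higher and 13 lower, with a median of -0.06, against 24% and 21.8% of all genes and 21% and 30.3% of genes of at least 100 CPM. The 48 h count of lower members was 22 without control replicate 2, 7 without control replicate 1 and 8 without EGF 48 h replicate 1.

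At 72 h, 54 of 86 members (a background of 31% of all genes and 36.1% of genes of at least 100 CPM) were lower than in the control, and 1 was higher, against 30.6% and 31.7%. The median log2 fold change of the members was -0.23, against -0.01 over all genes. For 42 members, all 4 libraries at 72 h were below all 4 controls, as for 25.9% of all genes, and for 0 members were all 4 above, against 26.1%. Under the 10 other settings of scaling, filter and test, 44 to 69 members were lower, and leaving out 1 library at a time gave 45 to 59. Changes were small: the member with the lowest value, RPS3A, fell by 0.65 on the log2 scale.

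**Figure D2:**
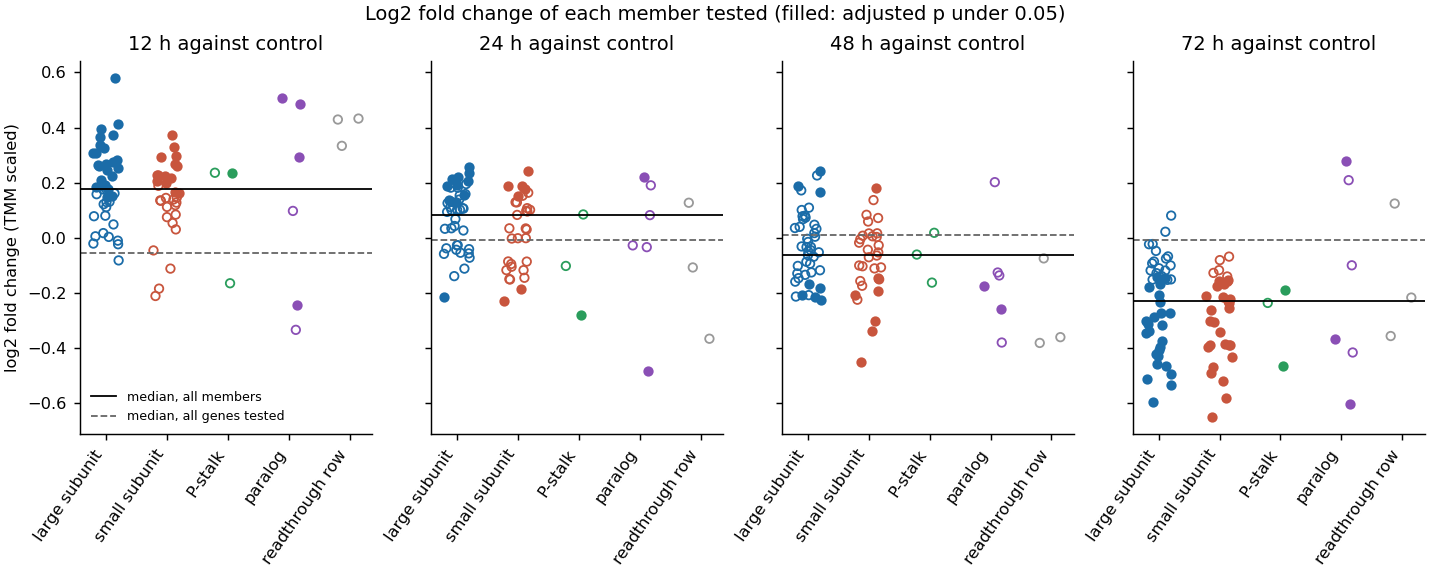
Log2 fold change against the control (y axis, TMM scaled) of the 86 members tested, 1 panel per time, by class on the x axis. Filled points passed an adjusted p under 0.05 (edgeR), the solid line is the median of the members and the dashed line that of all 16522 genes. Members lie mostly above the dashed line at 12 h, by a median of 0.23 (under scaling by library size the same points lie mostly below 0), and mostly below it at 72 h, by 0.22.

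**Figure D3:**
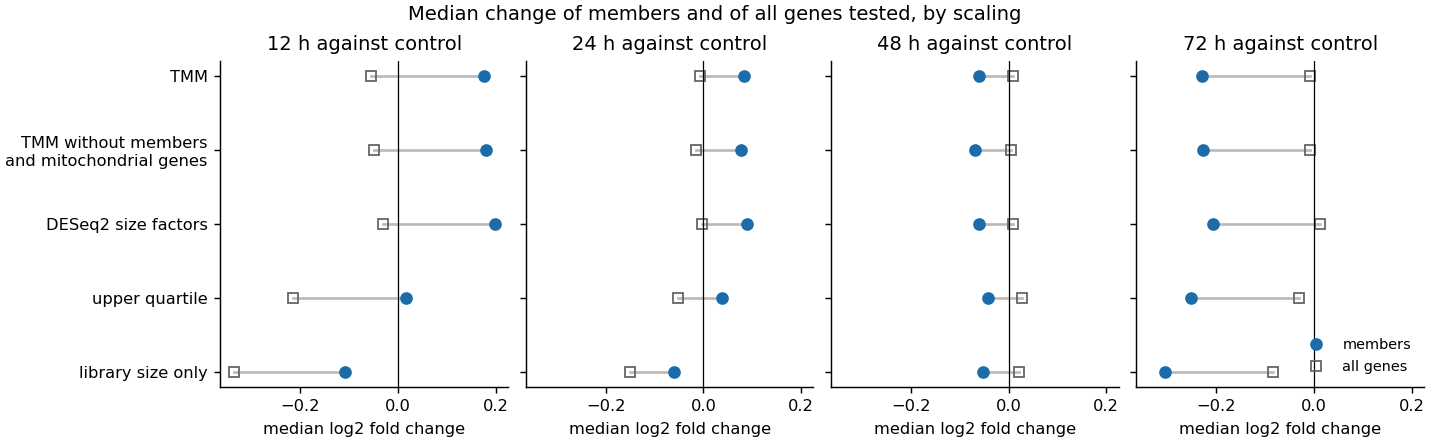
Median log2 fold change of the members (filled circles) and of all genes tested (open squares) at each time against the control, by the way libraries were scaled (rows). The member median changes sign with the scaling at 12 and 24 h and is below 0 in every row at 48 and 72 h. The distance to the median gene is 0.23, 0.09, -0.07 and -0.22 at 12, 24, 48 and 72 h. It is nearly the same in these 5 scalings by construction, since a scaling shifts all genes of a library alike. With at least 10 counts in every library, not plotted, the distance is 0.16 at 12 h and -0.03 at 48 h. The deposited factors per gene, not plotted, gave 0.09, 0.07, -0.06 and -0.23.

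By subunit, 25 of 31 small subunit genes and 25 of 43 large subunit genes were lower at 72 h, with medians of -0.25 and -0.18. At 12 h, 25 large and 14 small subunit genes were higher by TMM scaling, with medians of 0.18 and 0.15. By library size alone, 1 large and 0 small subunit genes were higher at 12 h and 13 and 11 were lower. The difference between the subunits was not tested. Of the 69 tested members with a start sequence, the 48 with a TOP run had a median of -0.21 at 72 h and 27 were lower. The 21 without a run had a median of -0.37 and 16 were lower. This group holds subunit genes such as RPL3, RPL4, RPL6 and RPS7 beside paralogs and a readthrough row. It was set by the annotated start alone, which may differ from the start used in these cells. The absence of a run there does not show that the mRNA lacks one. At 12 h, these medians were 0.17 with and 0.19 without the run, and -0.11 and -0.09 by library size alone. These values are a description with no test of the difference.

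Among the small subunit genes, RPS3A and RPS4X were lower at both 48 and 72 h. RPS3A (chr4:151099573-151104652, GRCh38), whose protein lies on the platform of the small subunit near the mRNA exit, was at 1028, 715, 1239 and 958 CPM in the control. It was at 853, 811, 926 and 878 CPM at 12 h, at 626, 644, 826 and 787 CPM at 48 h, and at 581, 688, 610 and 630 CPM at 72 h. All 72 h libraries were below all controls, of which replicate 2 was the lowest. The log2 fold change was -0.45 ± 0.12 (SE; adjusted p = 0.00404) at 48 h and -0.65 ± 0.121 (adjusted p = 7.45e-05) at 72 h.

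RPS4X, an X-linked gene that escapes X inactivation, was named for its CPM in the control, the highest of the members on a scale without gene length. It was at 3797, 3205, 4086 and 3575 CPM there. At 48 h, it was at 2656, 2790, 3086 and 3079 CPM, and at 72 h at 2432, 2672, 2549 and 2569 CPM, in both cases below every control. Its log2 fold change was -0.34 ± 0.0647 at 48 h (adjusted p = 0.000165) and -0.52 ± 0.0648 at 72 h (adjusted p = 2.34e-07). At 24 h, it was -0.19 (adjusted p = 0.0167), a call that was lost without control replicate 3 (-0.13) or EGF 24 h replicate 2 (-0.17), without the filter on low counts (adjusted p = 0.0569) and with only the 8 libraries compared (adjusted p = 0.0651).

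RPS6, the substrate of the S6 kinases downstream of mTOR, was lower at 72 h in each library. It was at 975, 931, 872 and 879 CPM in the control, at 848, 850, 837 and 860 CPM at 48 h, and at 656, 681, 682 and 692 CPM at 72 h. The log2 fold change at 72 h was -0.43 ± 0.0523 (adjusted p = 1.51e-07), with no overlap. At 12 h, RPS6 was at 994 to 1058 CPM, with a log2 fold change of 0.16 (adjusted p = 0.008) that became -0.12 under library size alone and did not pass with the deposited factors (0.11, adjusted p = 0.132).

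RPS20 and RPS3, whose proteins lie in the head of the small subunit, were lower at 72 h as well. RPS20 was at 2167, 1426, 2421 and 2026 CPM in the control and at 1427, 1634, 1510 and 1541 CPM at 72 h, a log2 fold change of -0.40 ± 0.114 (adjusted p = 0.00468). Control replicate 2 lay at the level of the 72 h libraries. RPS3, which also acts in DNA repair, was at 357, 283, 287 and 288 CPM in the control and at 246, 238, 247 and 252 CPM at 72 h (-0.31 ± 0.0667, adjusted p = 0.000344), with no overlap. RPS27, a zinc finger protein of the small subunit, was lower at 24, 48 and 72 h, with log2 fold changes of -0.23, -0.21 and -0.21 (adjusted p = 0.00291, 0.00861 and 0.00527). It was at 1710, 1519, 1720 and 1704 CPM in the control and at 1434, 1364, 1457 and 1492 CPM at 72 h.

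RPS24 and RPS27A were higher early and lower late. RPS24, a gene mutated in Diamond-Blackfan anemia, was at 1466, 1292, 1561 and 1387 CPM in the control, at 1716, 1637, 1659 and 1746 CPM at 24 h and at 1142, 1285, 1211 and 1252 CPM at 72 h. The log2 fold changes were 0.24 at 24 h (adjusted p = 0.00319) and -0.22 at 72 h (adjusted p = 0.00617), and under library size alone the 24 h value was 0.10 (adjusted p = 0.203). With the deposited factors, the 72 h value did not pass (-0.18, adjusted p = 0.0957). RPS27A encodes a ribosomal protein fused to ubiquitin. It was at 744 to 800 CPM at 12 h, 604 to 711 CPM in the control and 543 to 589 CPM at 72 h, with log2 fold changes of 0.22 at 12 h (-0.07 under library size alone) and -0.21 at 72 h. RPS27A was also called higher at 24 h, with values of 0.15 to 0.24 when 1 library was left out. That call was lost under library size alone (0.04, adjusted p = 0.57) and with only the 8 libraries compared (adjusted p = 0.0689).

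RPSA, the ribosomal protein that also acts as a laminin receptor, was at 510, 480, 443 and 458 CPM in the control and at 417, 397, 424 and 436 CPM at 72 h. Its log2 fold change at 72 h was -0.18 (adjusted p = 0.0182), and the call was lost without control replicate 1 (-0.14), EGF 72 h replicate 1 (-0.16) or EGF 72 h replicate 2 (-0.15), and with the deposited factors (-0.18, adjusted p = 0.0619). At 12 h, it was 0.22 (adjusted p = 0.00289) by TMM scaling and -0.06 by library size alone.

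Of the large subunit genes, RPL23 fell most. RPL23, whose protein lies at the interface with the small subunit and can bind MDM2, was at 184, 133, 179 and 161 CPM in the control and at 102, 108, 112 and 114 CPM at 72 h. All 72 h libraries were below all controls, and the log2 fold change was -0.59 ± 0.0833 (adjusted p = 1.41e-06). It was at 181 to 193 CPM at 12 h and 132 to 148 CPM at 48 h. Its calls at these times, higher at 12 h (0.19, adjusted p = 0.047; -0.10 under library size alone) and lower at 48 h (-0.21, adjusted p = 0.0446), were each lost when any of 6 of the 8 libraries compared was left out, with values of 0.10 to 0.25 and -0.30 to -0.15 over all 8. At 12 h these were control replicates 2 (0.10) and 4 and each of the 4 EGF libraries, and at 48 h control replicates 1 (-0.15), 3 and 4 and EGF replicates 1, 2 and 4. The 12 h call was also lost with the deposited factors (0.18, adjusted p = 0.127).

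RPL5 and RPL11 bind the 5S ribosomal RNA and, when ribosome assembly is disturbed, MDM2. The difference between their changes was not tested. RPL5 was at 1550, 1401, 1574 and 1446 CPM in the control, at 1717, 1678, 1655 and 1772 CPM at 24 h and at 1042, 1163, 1153 and 1143 CPM at 72 h. It rose by 0.19 ± 0.0596 on the log2 scale at 24 h (adjusted p = 0.00802; 0.05 under library size alone, and 0.16 with the deposited factors, adjusted p = 0.101) and fell by 0.41 ± 0.0597 at 72 h (adjusted p = 2.65e-06), in both cases with no overlap. RPL11 was at 509, 445, 425 and 407 CPM in the control and at 432, 437, 443 and 447 CPM at 72 h, where the groups overlapped (adjusted p = 0.77). RPL11 was higher at 12 h (0.18, adjusted p = 0.0128) and at 48 h (0.19, adjusted p = 0.0178). The first call was lost without control replicate 4 (0.15) and became -0.10 under library size alone, and the second was lost without control replicate 3 (0.16) or 4 (0.15) and with the deposited factors (0.15, adjusted p = 0.0642).

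RPL3, which reaches into the peptidyl transferase center, RPL7 and RPL22, an RNA-binding protein of the large subunit surface, were lower at 72 h. RPL3 was at 639, 556, 471 and 524 CPM in the control and at 413, 374, 416 and 424 CPM at 72 h (-0.43 ± 0.0766, adjusted p = 3.77e-05). RPL7 was at 306, 212, 306 and 262 CPM in the control and at 178, 208, 186 and 189 CPM at 72 h (-0.51 ± 0.0954, adjusted p = 6.06e-05). RPL22 was at 220, 204, 206 and 208 CPM in the control, and at 48 and 72 h its ranges were 174 to 197 CPM and 143 to 158 CPM, with log2 fold changes of -0.22 (adjusted p = 0.0071; -0.15 with the deposited factors, adjusted p = 0.0663) and -0.46 ± 0.0634 (adjusted p = 9.64e-07). In all 3 genes, the 72 h libraries lay below every control. RPL10, the protein that completes the large subunit late in its assembly, was at 1440, 1551, 1232 and 1368 CPM in the control and at 1237, 1107, 1237 and 1260 CPM at 72 h, where the groups overlapped. Its call at 72 h (-0.21, adjusted p = 0.0148) was lost without control replicate 2 (-0.16) or EGF 72 h replicate 2 (-0.16). At 12 h, RPL10 was at 1605 to 1803 CPM and was called higher by TMM scaling. That call held when any single library was left out (0.21 to 0.32), and the value was -0.02 under library size alone.

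The stalk recruits translation factors to the large subunit, with RPLP0 as the base and RPLP1 and RPLP2 bound to it. RPLP0, often used as a reference gene in qPCR, was lower at 24 and 72 h: it was at 1461, 1425, 1116 and 1233 CPM in the control, at 1181, 1067, 997 and 1071 CPM at 24 h and at 955, 897, 960 and 984 CPM at 72 h. Its log2 fold change was -0.28 ± 0.0736 at 24 h (adjusted p = 0.00231) and -0.46 ± 0.0737 at 72 h (adjusted p = 8.11e-06), with no overlap at 72 h. At 12 h (1212, 1138, 1173 and 1147 CPM, adjusted p = 0.0503) and 48 h (1213, 1239, 1063 and 1164 CPM) it overlapped the control and did not pass. RPLP1 was at 471, 575, 373 and 455 CPM in the control and at 403, 343, 426 and 420 CPM at 72 h, and passed the test at none of the 4 times. RPLP2 was at 978, 899, 759 and 827 CPM in the control and at 995 to 1073 CPM at 12 h (0.23, adjusted p = 0.00371; -0.05 under library size alone, and 0.09 with the deposited factors, adjusted p = 0.445). At 72 h, RPLP2 was at 781, 714, 761 and 783 CPM (-0.19, adjusted p = 0.0192), and this call was lost without control replicate 1 (-0.13) or EGF 72 h replicate 2 (-0.16).

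RPL8, RPL36 and RPL12 were the large subunit genes named for the highest values after EGF. RPL8, which lies next to the peptidyl transferase center, was at 160, 167, 109 and 134 CPM in the control and at 231, 220, 198 and 204 CPM at 12 h. Its log2 fold change of 0.58 ± 0.131 at 12 h (adjusted p = 0.000482) kept its call and direction under every setting and without any library. At 72 h, RPL8 was at 153, 118, 129 and 144 CPM, within the range of the control. RPL36 was at 200, 213, 145 and 174 CPM in the control and at 256, 241, 240 and 236 CPM at 12 h (0.41 ± 0.0933, adjusted p = 0.000416; 0.13 under library size alone, adjusted p = 0.244). RPL36 was also called higher at 24 h (0.26, adjusted p = 0.0216) and 48 h (0.24, adjusted p = 0.0375). These calls were lost without control replicate 3 (0.16 and 0.14) or 4 (0.24 and 0.22), without EGF 24 h replicate 1 (0.23), and without EGF 48 h replicate 1 (0.21) or 2 (0.19). With the deposited factors, neither passed (0.21 and 0.19).

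RPL12, at the base of the stalk, was at 978, 1000, 854 and 921 CPM in the control, at 1190, 1104, 1127 and 1056 CPM at 12 h and at 1117, 1092, 1140 and 1066 CPM at 24 h, above every control at both times. Its log2 fold change was 0.25 ± 0.0614 at 12 h (adjusted p = 0.000796; -0.03 under library size alone) and 0.23 ± 0.0614 at 24 h (adjusted p = 0.00218; 0.09 under library size alone). At 48 h it was 0.17 (adjusted p = 0.0305), a call lost without control replicate 3 (0.12) or 4 (0.16) or EGF 48 h replicate 1 (0.17) or 2 (0.13), and with the deposited factors (0.12, adjusted p = 0.14). At 72 h, it was at 798 to 910 CPM, and did not pass the test (adjusted p = 0.163).

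**Figure D4:**
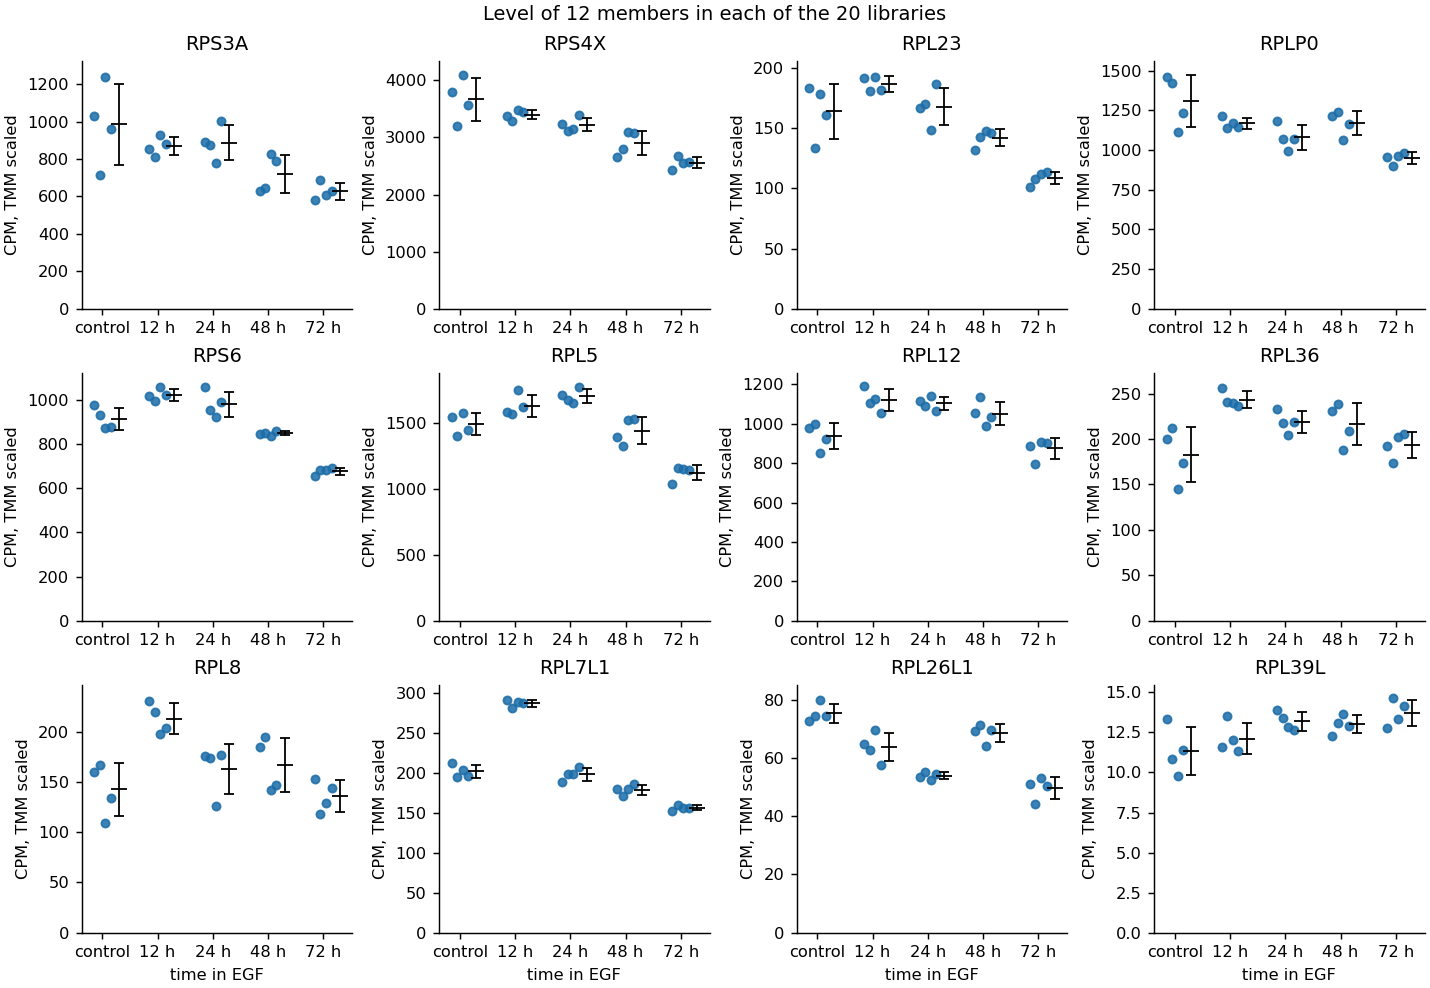
CPM (y axis, TMM scaled) of 12 members in each of the 20 libraries, by time in EGF, with the mean and SD beside the 4 points of a group (n = 4). RPS3A, RPS4X, RPL23, RPLP0, RPS6, RPL5, RPL7L1 and RPL26L1 are lowest at 72 h with no overlap with the control; RPL8 and RPL7L1 are highest at 12 h, a direction that held under scaling by library size.

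Some ribosomal proteins have a second, divergent gene, and in several cases the paralog is used in place of its partner in particular tissues or states. Of the 6 paralogs that passed the filter, RPL7L1 and RPL26L1 passed the test at 3 times each. RPL7L1, which takes part in the assembly of the large subunit, was at 212, 195, 204 and 196 CPM in the control, at 291, 281, 288 and 287 CPM at 12 h, at 170 to 185 CPM at 48 h and at 152, 160, 156 and 156 CPM at 72 h. Its log2 fold change was 0.51 ± 0.0514 at 12 h (adjusted p = 5.58e-09), which held under every setting, and -0.37 ± 0.0516 at 72 h (adjusted p = 1.45e-06). At 48 h, it was -0.17 (adjusted p = 0.00786), a call lost without the filter on low counts (adjusted p = 0.0741) and with only the 8 libraries compared (adjusted p = 0.0727). The replicates lay close together, and the groups at 12 and 72 h were on opposite sides of the control.

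RPL26L1 was the member that was lower at 12 h. It was at 72.6, 74.5, 80.0 and 74.3 CPM in the control, at 64.9, 62.9, 69.5 and 57.7 CPM at 12 h and at 53.4, 55.1, 52.5 and 54.6 CPM at 24 h. At 48 h it was at 69.3, 71.2, 64.2 and 69.7 CPM, nearer to the control but still below each of its libraries, and at 72 h at 51.1, 44.1, 53.1 and 50.5 CPM. The log2 fold changes against the control were -0.24 ± 0.0671 at 12 h (adjusted p = 0.00269; -0.0485 with the deposited factors, adjusted p = 0.75), -0.48 ± 0.0675 at 24 h (adjusted p = 1.53e-06) and -0.60 ± 0.0677 at 72 h (adjusted p = 4.85e-08), and at 48 h it did not pass (adjusted p = 0.0992). From 24 to 48 h RPL26L1 rose by 0.35 ± 0.0676 (adjusted p = 0.000172), and from 48 to 72 h it fell by 0.46 ± 0.0678 (adjusted p = 9.28e-06). Its partner RPL26 was at 581, 439, 622 and 552 CPM in the control and at 498, 567, 528 and 531 CPM at 72 h, and passed the test at none of the 4 times.

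RPL39L, the paralog of the exit tunnel protein RPL39, was the member that was higher at 72 h. It was at 13.3, 10.8, 9.77 and 11.4 CPM in the control and at 12.8, 14.6, 13.3 and 14.2 CPM at 72 h, with overlap. The log2 fold change was 0.28 ± 0.0918 (adjusted p = 0.0115), a call lost without control replicate 3 (0.21), under library size alone (0.20) and with the deposited factors (0.14, adjusted p = 0.298). RPL39L was also called higher at 24 h, with values of 0.16 to 0.31 when 1 library was left out. That call was lost when any of 5 of the 8 libraries was left out, and under library size alone (0.08, adjusted p = 0.508). Over the 5 groups, RPL39L did not pass the edgeR F test (adjusted p = 0.0512). RPL39 itself was at 1988 to 2600 CPM in the control and 2013 to 2337 CPM at 72 h (adjusted p = 0.153). RPL22L1 was variable in the control, at 48.2, 27.2, 54.4 and 39.0 CPM, and was at 57.2, 54.7, 59.5 and 64.7 CPM at 12 h (0.49 ± 0.201, adjusted p = 0.0394; 0.20 under library size alone, and 0.395 with the deposited factors, adjusted p = 0.099). That call was lost without control replicate 2 (0.33) or 4 (0.45), or EGF 12 h replicate 1 (0.51), 3 (0.49) or 4 (0.44). RPL36AL was at 103, 79.0, 123 and 98.0 CPM in the control. At 12 h it was at 116 to 133 CPM (0.29, adjusted p = 0.0117; 0.01 under library size alone, and 0.20 without control replicate 2, where the call was lost as well), and at 48 h at 72.1 to 95.0 CPM (-0.26, adjusted p = 0.0393). The 48 h call of RPL36AL was lost when any of 5 of the 8 libraries was left out (control replicates 1, 3 and 4 and EGF 48 h replicates 1 and 2), with values of -0.36 to -0.15 over all 8. RPS27L, a target of p53, was at 37.0, 22.6, 54.3 and 38.1 CPM in the control and at 41.5, 47.6, 42.7 and 44.0 CPM at 72 h (adjusted p = 0.303).

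The ratio of a paralog to its partner within a library does not depend on the scaling. RPL7L1 made up 40.9, 47.9, 40.0 and 42.8% of the summed CPM of RPL7L1 and RPL7 in the control and 51.0, 50.5, 48.4 and 50.2% at 12 h, with no overlap. RPL26L1 made up 11.1 to 14.5% of its pair in the control, 8.77 to 9.69% at 12 h, 7.17 to 8.40% at 24 h and 7.22 to 9.31% at 72 h, without overlap at these 3 times. RPL39L made up 0.375 to 0.543% of its pair in the control and 0.622 to 0.650% at 72 h. In the other pairs the libraries overlapped at every time. Over the 6 pairs and 4 times, 5 of 24 comparisons had no overlap, each with p = 0.0286 by a two-sided exact permutation test of the log2 ratio, the smallest p that 4 against 4 allows. After Benjamini-Hochberg adjustment over the 24, these exact permutation tests gave 0.137. With 4 against 4, the smallest p is too large for 5 comparisons to pass after this adjustment, whatever the size of the difference. The adjusted values therefore do not decide whether the ratios differed. The differences in log2 ratio were 0.42 ± 0.109 for RPL7L1 at 12 h, -0.43 ± 0.106, -0.69 ± 0.115 and -0.57 ± 0.136 for RPL26L1 at 12, 24 and 72 h, and 0.42 ± 0.12 for RPL39L at 72 h.

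**Figure D5:**
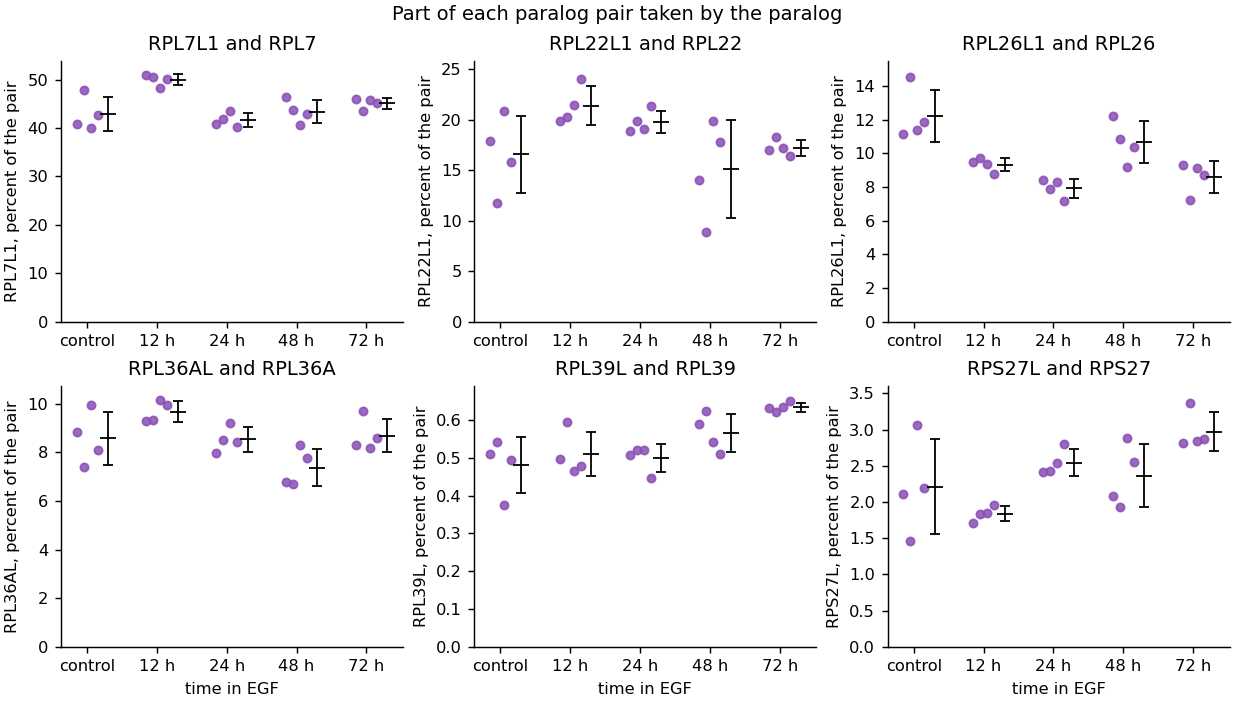
Percent of the summed CPM of a paralog and its partner that belonged to the paralog (y axis), 1 point per library by time in EGF, with mean and SD (n = 4). RPL26L1 takes 7.17 to 9.69% of its pair at 12, 24 and 72 h, below the 11.1 to 14.5% of the control, and RPL7L1 takes 48.4 to 51.0% at 12 h, above the control.

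Across the 4 times, the 86 members fell into a few patterns of calls. Of these, 16 (18.6%, against 1.78% of all genes) were lower at 72 h with no call at another time, RPL3, RPL7, RPS3 and RPS20 among them. Another 15 (17.4%, against 0.781%) were higher at 12 h and lower at 72 h with no call between, including RPL10, RPLP2, RPS6 and RPSA, and 11 (12.8%, against 4.81%) were higher at 12 h alone, including RPL8 and RPL22L1. In all, 27 members (31.4%) were called higher at one time and lower at another, as were 13% of all genes and 16% of genes of at least 100 CPM. These patterns rest on TMM scaling, under which the 12 h calls differ from those by library size. Compared directly, 79 of 86 members were lower at 72 h than at 12 h and 1 was higher, against 32% and 35.6% of all genes, and by library size alone 54 were lower and 2 higher. A further 11 (12.8%, against 10.2% of all genes) passed the test at no time: RPL13A, RPL14, RPL26, RPL31, RPL36A, RPL39, RPLP1, RPS27L and the 3 readthrough rows. RPL13A, a protein that leaves the ribosome to repress translation after interferon-gamma, was at 1070 to 1299 CPM in the control and 1020 to 1147 CPM at 72 h (adjusted p = 0.081). The row with the lowest control level, RPL36A-HNRNPH2, was at 1.21, 2.69, 2.18 and 2.88 CPM in the control. It shares exons with RPL36A, so that reads in these exons cannot be assigned to either with certainty.

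From one time to the next, more members were lower than higher by TMM scaling. From 12 to 24 h 29 were lower and 0 higher by edgeR, also 0 at an unadjusted p under 0.05 and 0 by DESeq2 (25.9% and 27.9% of all genes, 41.1% and 14% of genes of at least 100 CPM), with a median of -0.12. From 24 to 48 h 24 were lower and 1, RPL26L1, was higher (24.3% and 25.9% of all genes, 50.9% and 13.5% of genes of at least 100 CPM), with a median of -0.09. The shares of members lower in both steps are below those of genes of similar level. By library size alone, both steps turned, with 1 lower and 8 higher from 12 to 24 h and 1 lower and 10 higher from 24 to 48 h. From 48 to 72 h 47 members were lower and 0 higher by edgeR, also 0 at an unadjusted p under 0.05 and 0 by DESeq2, against 17.9% of all genes in each direction and 18.2% and 23.3% of genes of at least 100 CPM, and 45 members had all 4 libraries at 72 h below all 4 at 48 h, against 17.3% of all genes, and 0 had all 4 above, against 17.7%. The median was -0.19, and 33 to 67 members were lower in this step under the other settings.

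FAU and RACK1 are ribosomal proteins outside the name pattern. RACK1, a scaffold protein on the small subunit, was at 1757, 1653, 1493 and 1569 CPM in the control, at 2238, 2095, 2088 and 2108 CPM at 12 h and at 1592, 1511, 1613 and 1627 CPM at 72 h. FAU, which encodes a ribosomal protein fused to a ubiquitin-like protein, was at 122 to 181 CPM in the control and at 144 to 161 CPM at 72 h. Both passed the test at 12 h, with log2 fold changes of 0.40 for RACK1 and 0.39 for FAU (adjusted p = 6.46e-07 and 0.000391). Under library size alone, these were 0.11 and 0.11, and neither passed (adjusted p = 0.0797 and 0.307). At 24 h, RACK1 was higher (0.25 ± 0.0542, adjusted p = 0.000406), with all 4 libraries above all controls, but did not pass under library size alone (0.10, adjusted p = 0.119) or with the deposited factors (0.16, adjusted p = 0.0754). FAU was called higher at 24 h (0.23, adjusted p = 0.0327), a call lost without control replicate 3 or 4 or EGF 24 h replicate 1 or 3 (0.14 to 0.32 over all 8 libraries) and under library size alone (0.08, adjusted p = 0.464). At 72 h, neither passed (adjusted p = 0.659 and 0.803).

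The other genes of the pathway are read against the background at 12 h (32.9% of all genes higher and 36.5% lower) and at 72 h (30.6% higher and 31% lower). Of 35 ribosome biogenesis genes (such as NCL, FBL and BOP1, which act in the nucleolus), 33 were higher and 1 lower at 12 h, with a median of 0.81, and 26 were still higher under library size alone. At 72 h, 8 of them were higher and 13 lower. Of 13 chaperones and import factors of ribosomal proteins, 8 were higher at 12 h (5 higher and 4 lower under library size alone), and at 72 h 6 were lower. Of 17 translation factors and other genes whose mRNAs carry a TOP run, 5 were higher and 3 lower at 12 h (1 and 11 under library size alone), and at 72 h 2 were higher and 9 lower, with a median of -0.21. Of 13 regulators of ribosome production or of TOP mRNAs, among them MYC, MTOR and LARP1, 8 were higher and 3 lower at 12 h (5 and 4 under library size alone), and 4 and 3 at 72 h. These genes have different roles, so the counts give no direction of that control. The mitochondrial ribosome is a separate set: of its 78 proteins, 22 were higher and 27 lower at 12 h (8 and 49 under library size alone), and at 72 h 5 were higher and 46 lower, with a median of -0.29.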

How the data were processed

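RNA of 20 MDA-MB-468 cultures was sequenced from Lexogen Corall mRNA libraries as 75 bp single-end reads. The authors deposited estimated counts per gene, rounded to whole numbers, made by mapping to the transcriptome. The submitters' processing notes name hg38 and DESeq2, and the mapping tool and the use of strand or molecular identifiers are not given in the sources used here. The authors also deposited values normalized in DESeq2 (a score with its own factor for each gene and library), which were used for 1 alternative, and the authors' fold changes and p-values were not used. Counts were analyzed with edgeR 4.0.16 in R 4.3.3 (filterByExpr, TMM, robust quasi-likelihood test, 1 mean per group, all 20 libraries, Benjamini-Hochberg adjustment over 16522 genes, threshold 0.05). SEs were derived from the F statistic. DESeq2 1.42.0, other scalings and filters, a replicate block and leaving out each library were alternatives. Depth was 15611961 to 25856953 counts per library. On simulated data, the fit was checked on known changes, set in both directions for a random set of genes at 12 h. The simulation held no added shift in scaling between groups, so it did not test how the 12 h calls depend on scaling. Coordinates are from GENCODE 29.

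Named are the stalk genes and RPSA, members with known regulatory roles, paralogs with their partners, the 3 highest and 3 lowest members at each time (mean of at least 1 CPM, readthrough rows apart), the members of highest and lowest control level, and FAU and RACK1. Members, lists and this rule were chosen with earlier results of these data known, and the paralog ratios, the scaling by the authors' deposited factors and the alternatives for the pathway lists, the overall test and FAU and RACK1 were added after the values were seen. Log2 fold changes are given for named genes that passed the test. For RPL10 at 12 h and for RPS27A and RPL39L at 24 h, the range over left-out libraries is given instead. Another gene that the rule names is not reported here.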

Additional observations from a re-analysis of the deposited data

Results flagged for a closer look

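In 10 of 170 groups of 4 values, 1 library lay apart from the other 3 by Dixon's criterion at the 95% level, and chance alone gives about 1 in 20. The members' share of counts was 8.15% in control replicate 1 and 7.29 to 7.40% in the other controls. In the control, RPS27 was at 1519 CPM in replicate 2 against 1704 to 1720 CPM, and RPS3 at 357 CPM in replicate 1 against 283 to 288 CPM. RPLP2 was at 1073 CPM in EGF 12 h replicate 1 against 995 to 1005 CPM. In EGF 24 h replicate 3, RPL11 was at 435 CPM against 488 to 493 CPM and RPL8 at 126 CPM against 174 to 177 CPM, and this library was the lowest of its group for 71 of 86 members. In EGF 48 h replicate 2, RPL22 was at 197 CPM against 174 to 178 CPM and RPS27 at 1531 CPM against 1406 to 1415 CPM. At 72 h, RPL10 was at 1107 CPM in replicate 2 against 1237 to 1260 CPM, and RPL5 at 1042 CPM in replicate 1 against 1143 to 1163 CPM.

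For 10 named members, called higher at one time and lower at another, the difference between these times is given. These members and times were chosen because the same fit called them in opposite directions, so the values are a description. From 12 to 72 h, the log2 difference was -0.88 for RPL7L1, -0.78 for RPL23, -0.59 for RPS6 and -0.475 for RPL10. It was -0.43 for RPS27A, -0.42 for RPLP2 and -0.40 for RPSA. From 12 to 48 h, it was -0.68 for RPL7L1, -0.55 for RPL36AL and -0.39 for RPL23. From 24 to 72 h, it was -0.60 for RPL5, -0.47 for RPS24 and -0.40 for RPS27A. By library size alone, each of these differences kept its direction, but that of RPL23 from 12 to 48 h was -0.10 and did not pass (edgeR, adjusted p = 0.295).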

How the results depend on the processing

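The fall at 72 h kept its direction in every setting, while the calls at 12 and 24 h depended on the scaling, and the cause was not tested. By library size alone, 2 members were higher and 27 lower at 12 h (median -0.11), 0 higher and 25 lower at 24 h (-0.060), and 0 higher at 72 h (-0.31). From 12 to 24 h, 8 were higher and 1 lower (0.020), from 24 to 48 h 10 higher and 1 lower (0.064), and from 48 to 72 h the median was -0.28. Of the named 12 h values, RPL23 became -0.10, RPS6 -0.12, RPL11 -0.10, RPS27A -0.069, RPL10 -0.018, RPSA -0.062, RPLP2 -0.052 and RPL12 -0.032. By upper quartile scaling, 9 members were higher and 12 lower at 12 h (0.015, with RPS6 at -0.00044) and 9 higher and 9 lower at 24 h. There, 6 were higher and 3 lower from 12 to 24 h (-0.0062), and 2 higher and 11 lower from 24 to 48 h.

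Without the filter on low counts, 9 were higher at 24 h, 1 higher and 7 lower at 48 h, and 14 lower from 24 to 48 h. With at least 10 counts in every library, 5 were lower at 12 h, 7 higher and 7 lower at 48 h, and 1 higher and 18 lower from 12 to 24 h. In fits of only the 8 libraries compared, 7 were higher at 24 h, 0 higher and 5 lower at 48 h, 3 higher from 12 to 24 h and 1 higher from 48 to 72 h. With the deposited factors, by edgeR 0 were lower at 12 h, 6 higher at 24 h, 0 higher at 48 h, 0 higher at 72 h and 1 higher from 12 to 24 h. Without mitochondrial genes, the share of counts was 8.47% in the control and 7.52, 8.01, 8.335 and 7.07% at 12, 24, 48 and 72 h. Of the counts of all protein-coding genes outside the mitochondrial chromosome, members included, it was 8.65, 7.63, 8.17, 8.54 and 7.24% in the same order. Leaving out 1 library at a time, 11 to 26 members were higher and 4 to 8 lower at 24 h, 0 to 6 higher and 7 to 22 lower at 48 h, and 1 to 5 lower at 12 h. From 12 to 24 h 12 to 27 were lower, and from 24 to 48 h 13 to 34. Of 58 named calls, 41 held when any single library was left out. Library size alone kept 35, lost 15 and changed the sign of 8, upper quartile scaling kept 45, lost 12 and changed the sign of 1, and the deposited factors kept 42 and lost 16. Only the 8 libraries compared kept 45, no filter 49, at least 10 counts 52, and TMM from genes outside the list 57, and DESeq2's test and its size factors kept all 58.

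Replicate numbers did not pair the samples: 5 of 40 correlations of same-numbered libraries across groups were over 0.1. With the replicate number as a block, 2 members were lower at 12 h and all 58 named calls were kept.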
